A study of Bos taurus with 6 samples.

Results

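The respiratory chain subunits that cattle encode in their mitochondrial genome were examined in blastocysts through 10 genes. These were ND1, ND2, ND4 and ND5 of complex I, CYTB of complex III, COX1, COX2 and COX3 of complex IV, and ATP6 and ATP8 of complex V. Rows were picked by gene name, with no threshold on their values. All 10 names were found, each in a single row of a table with 36075 rows, of which 20337 carry a gene symbol. In the RefSeq annotation of the bovine assembly ARS-UCD2.0 the mitochondrial genome holds 13 protein-coding genes, and the other 3 (ND3, ND4L and ND6) are given for comparison. That assembly is not the build of the table, so it was used for names, for the order of the genes along the genome and for their lengths, and not for coordinates.

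The blastocysts came from oocytes aspirated from slaughterhouse ovaries and matured in vitro for 22 h in medium with 1e-07 mol/L melatonin (MT) or in medium without it (control). Both groups were then fertilized with frozen semen and cultured to the blastocyst stage in the same way, so MT was present during oocyte maturation only. Each group had 3 libraries, and each library was a pool of 3 blastocysts from an independent in vitro production run. Within a run, oocytes of both groups came from a common batch and were matured side by side, but whether equal replicate numbers mark the same run is not given in the sources used here. The MT concentration, the maturation time and the pooling are those of the study's methods, since the sample labels name nothing beyond the group and a replicate number.

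Mitochondrial DNA passes to the embryo from the oocyte. It is transcribed into long precursor RNAs that span most of the genome, and tRNAs between the genes mark where the messengers are cut out. A messenger's level therefore depends on processing and decay as well as on transcription. Complex I oxidizes NADH, complex III passes electrons from ubiquinol to cytochrome c, complex IV reduces oxygen, and complex V uses the proton gradient built by the others to make ATP. Each of these complexes joins a few subunits encoded in the mitochondrion with many encoded in the nucleus.

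The values were TPM, read counts scaled for gene length and for library total, so that different genes can be compared in level within a library. TPM keep no read counts, and the sequencing depth of the libraries was not analysed here. Replicates correlated closely, with Pearson coefficients over log2(TPM + 1) of 11953 genes between 0.991 and 0.999. Between 8854 and 8953 genes were above 0 in the control libraries and between 14372 and 14408 in the MT-treated libraries, and the listed TPM summed to between 936783 and 937698 and between 912686 and 913707. Markers of the embryonic lineages also differed between the groups, as did 95.7% of all tested genes, 61.6% higher and 34.1% lower in MT-treated blastocysts. Of 10 listed trophectoderm genes, 8 were higher and 2 lower by limma, with the list's sum between 11622 and 11959 TPM in control and between 10839 and 11185 TPM in MT-treated libraries, CDX2 was at 0 in every control library, and TFAP2A had the largest fall, from between 31.5 and 38.9 TPM to between 0.46 and 0.55 TPM. Of 8 inner cell mass genes, 7 were tested, 3 were higher and 2 lower, the sum lay between 472 and 477 TPM and between 437 and 439 TPM, NANOG was at 0 in every control library, and SALL4 and DPPA3 were lower (log2 fold change -1.07 and -0.86). Of 8 hypoblast genes, 5 were tested and all 5 were higher, with sums between 18.4 and 19.04 TPM in control and between 104 and 113 TPM in MT-treated libraries, and GATA4 and FOXA2 were at 0 in all 6 libraries. PDGFRA, HNF4A, GATA6 and LAMA1 were below 1 TPM in every control library, so 4 of these 5 genes could be tested only by being higher. The same holds for CDX2 of the trophectoderm list and for NANOG and SOX2 of the inner cell mass list. TFAP2A, below 1 TPM in every MT-treated library, could be tested only by being lower. Of 9 cumulus cell genes, which would mark attached somatic cells, 1 was tested and was lower, with sums between 17.2 and 19.3 TPM and between 15.1 and 17.1 TPM. Of 11 maternal oocyte genes, 1 was tested and was lower, with sums between 45.6 and 49.3 TPM and between 21.8 and 24.2 TPM. The part of these differences in the values below was not tested.

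The mitochondrial messengers were among the most abundant RNAs of the blastocysts. By mean TPM over the 6 libraries, COX3, COX2, ATP6 and COX1 took the places 1, 2, 3 and 5 of all listed rows, and ND5, the lowest of the 10 genes, was at place 180. The 10 genes summed to 65996, 67247 and 65050 TPM in the control libraries and to 72348, 73375 and 71034 TPM in the MT-treated libraries. Every MT-treated sum was above every control sum, and the groups differed by 6154 TPM (ratio 1.09, exact permutation test, two-sided, p = 0.1, the lowest value possible with 3 libraries in each group). As a share of all listed TPM, the sum made up 7.05% ± 0.120 in control and 7.91% ± 0.132 in MT-treated blastocysts (SD, n = 3 each). In a pool of whole embryos, a different share of cells of a type and a different level of these RNAs per cell cannot be told apart.

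Against this modest difference in the sum, single genes moved apart. On TPM as deposited, 7 of the 10 genes (ND1, ND2, ND4, ND5, COX1, COX2 and ATP6) were higher in MT-treated blastocysts, CYTB and ATP8 were lower, and COX3 did not pass the test, whereas after median centring, described below, 8 were higher and only ATP8 was lower. All tests of single genes were made with limma on log2(TPM + 1), with Benjamini-Hochberg adjustment over the 11953 genes tested. A call by itself says little in these libraries, because 95.7% of all tested genes were called, 61.6% higher and 34.1% lower. The groups did not overlap for 9 of the 10 genes, against 96.1% of all tested genes. The sizes of the differences say more. Between ATP8 at a log2 fold change of -0.60 and ND5 at 0.84, the genes spanned 1.44 log2 units, while the coefficient of variation within a group lay between 0.727% and 5.16%. The median log2 fold change of the 10 genes was 0.20 and the median size 0.36, against 1.12 and 1.98 over all tested genes. Only 5988 of the 11953 tested genes reached a TPM of 1 in every library, so the latter medians include many genes that were below it in some libraries. Abundant genes as a whole changed less. The 170 other genes with a mean of at least 925 TPM, that of ND5, had a median log2 fold change of -0.10 and a median size of 0.23, with 55 higher and 95 lower.

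**Figure D1:**
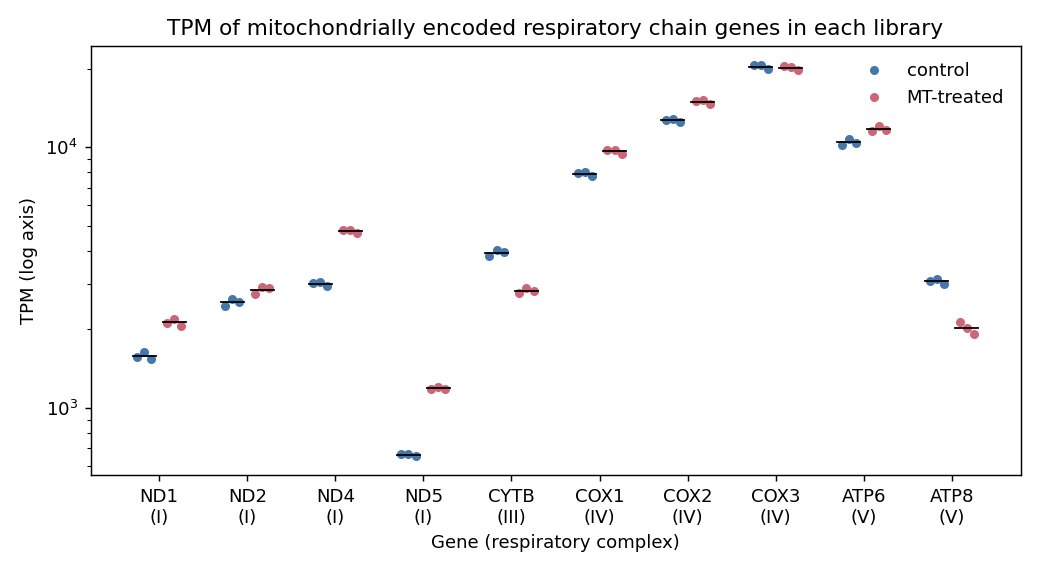
TPM of each gene in each library on a log axis, with the respiratory complex under the gene name; blue points are the 3 control libraries, red points the 3 MT-treated libraries, and black lines the group means. ND4 and ND5 stand clearly higher and CYTB and ATP8 lower in the MT-treated libraries on TPM as deposited (CYTB differs by -0.000524 log2 units after median centring), and the groups overlap only for COX3.

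The 3 largest rises were those of the complex I genes ND5, ND4 and ND1. ND1, ND2, ND4 and ND5 encode membrane subunits of the proton-pumping arm. ND5 (ENSBTAG00000043563) had 663, 666 and 656 TPM in control and 1179, 1205 and 1183 TPM in MT-treated libraries. The lowest MT-treated value was thus far above the highest control value, and the log2 fold change was 0.84 (standard error, SE, 0.01, limma adjusted p = 5.78e-09), a rise of 79.7% in mean TPM. ND4 (ENSBTAG00000043577) had 3017, 3036 and 2944 TPM in control and 4797, 4818 and 4678 TPM in MT-treated libraries. Its groups also lay well apart, with a log2 fold change of 0.67 (SE 0.02, limma adjusted p = 6.22e-08). ND1 (ENSBTAG00000043558) had 1573, 1637 and 1542 TPM in control and 2115, 2199.6 and 2071 TPM in MT-treated libraries, a log2 fold change of 0.43 (SE 0.03, limma adjusted p = 1.49e-05). ND2 (ENSBTAG00000043571), transcribed next to ND1, had 2459.5, 2608 and 2547 TPM in control and 2734, 2912 and 2886 TPM in MT-treated libraries. Its groups were closest among the genes called higher, with 126 TPM between the highest control and the lowest MT-treated library. Its log2 fold change of 0.16 (SE 0.03, limma adjusted p = 0.00259) was the smallest rise on TPM as deposited, close to the 0.17 of ATP6. After quantile normalization it was 0.21, above the 0.17 of ATP6. All 4 complex I genes were higher under each of the scalings tried. The mean log2(TPM + 1) of the 4 genes came to 10.7 ± 0.0248 in the control group and 11.2 ± 0.0256 in the MT-treated group (SD, n = 3 each; difference 0.53, exact permutation test, two-sided, p = 0.1).

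CYTB (ENSBTAG00000043550), the only mitochondrially encoded subunit of complex III, carries the hemes of its quinone sites. It had 3812, 4017 and 3950.2 TPM in control and 2751, 2881 and 2814 TPM in MT-treated libraries. The values did not overlap, and the log2 fold change was -0.48 (SE 0.02, limma adjusted p = 2.74e-06). After median centring it was -0.000524 (adjusted p = 0.985 by limma), because that scaling adds the same amount to every gene, and here the amount equalled the fall.

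COX1, COX2 and COX3 form the core of complex IV, with the copper and heme centres in COX1 and COX2. COX1 (ENSBTAG00000043561) had 7942, 8004 and 7736 TPM in control and 9709, 9789.9 and 9414 TPM in MT-treated libraries, a log2 fold change of 0.29 (SE 0.02, limma adjusted p = 1.04e-05). COX2 (ENSBTAG00000043556) had 12676, 12847 and 12455 TPM in control and 15006, 15117 and 14599 TPM in MT-treated libraries. Both genes were higher in 3 of 3 MT-treated libraries than in any control library, and COX2 had a log2 fold change of 0.24 (SE 0.02, limma adjusted p = 1.54e-05), which quantile normalization set to 0. COX3 (ENSBTAG00000043560), the most abundant RNA of the table, had 20558, 20554 and 19903 TPM in control and 20372, 20341 and 19818 TPM in MT-treated libraries. The groups overlapped, and the difference of -0.0115 had a 95% interval of -0.05 to 0.03 on the log2 scale (adjusted p = 0.532 by limma). In each pair of libraries with the same replicate number COX3 was slightly lower with MT, and a fit with the replicate number as a block called it lower at the same difference (limma adjusted p = 0.00860). After median centring COX3 was higher (log2 fold change 0.47, adjusted p = 1.06e-06 by limma). The mean log2(TPM + 1) of the 3 genes differed by 0.17 (exact permutation test, two-sided, p = 0.1).

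The complex V genes moved in opposite directions on TPM as deposited. ATP6 forms part of the proton channel, and ATP8 is a small protein of the stator. ATP6 (ENSBTAG00000043584) had 10229.8, 10756 and 10330.2 TPM in control and 11551, 12093 and 11646 TPM in MT-treated libraries, a log2 fold change of 0.17 (SE 0.03, limma adjusted p = 0.000650). ATP8 (ENSBTAG00000043564) had 3064, 3122.5 and 2985 TPM in control and 2133, 2017 and 1925 TPM in MT-treated libraries. All 3 MT-treated values of ATP8 lay below the control values, with a log2 fold change of -0.60 (SE 0.04, limma adjusted p = 9.79e-06), a fall that remained after median centring at -0.12 (adjusted p = 0.0379 by limma). The mean over both genes differed by -0.21 between the groups (exact permutation test, two-sided, p = 0.1), and by 0.27 after median centring.

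The order of levels changed with the treatment group. In control blastocysts it ran from COX3 over COX2, ATP6, COX1, CYTB, ATP8, ND4, ND2 and ND1 to ND5, and only ATP8 and ND4 overlapped in their ranges. In MT-treated blastocysts COX3, COX2, ATP6 and COX1 were again the first, followed by ND4, ND2, CYTB, ND1, ATP8 and ND5. There the ranges of ND2 and CYTB overlapped, as did those of ND1 and ATP8. CYTB thus stood at place 5 in control and at place 7 in MT-treated blastocysts, while ND4 moved from place 7 to place 5.

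TPM are shares of a library, so a gene's difference also depends on what all other genes did, and 3 further scalings were compared. The first divides each value by the sum of all rows other than the 10 genes. It left 7 genes higher and 2 lower, where 95.8% of all tested genes were called, 62.6% higher and 33.2% lower. Quantile normalization, which imposes an identical distribution on all libraries, left 6 higher and 2 lower, where 90.9% were called, 46.4% higher and 44.4% lower. COX3 and COX2 held the highest ranks in every library, so this scaling gives both a difference of 0 by construction. Median centring subtracts the median of the 5988 genes that reached a TPM of 1 in each library. This median was lower by 0.48 log2 units in MT-treated blastocysts, and taking it out raised all differences by that amount, giving 8 genes higher and 1 lower, where 95.8% of all tested genes were called, 70.4% higher and 25.4% lower. ND1, ND2, ND4, ND5, COX1 and ATP6 were higher and ATP8 lower under all 4 scalings.

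**Figure D2:**
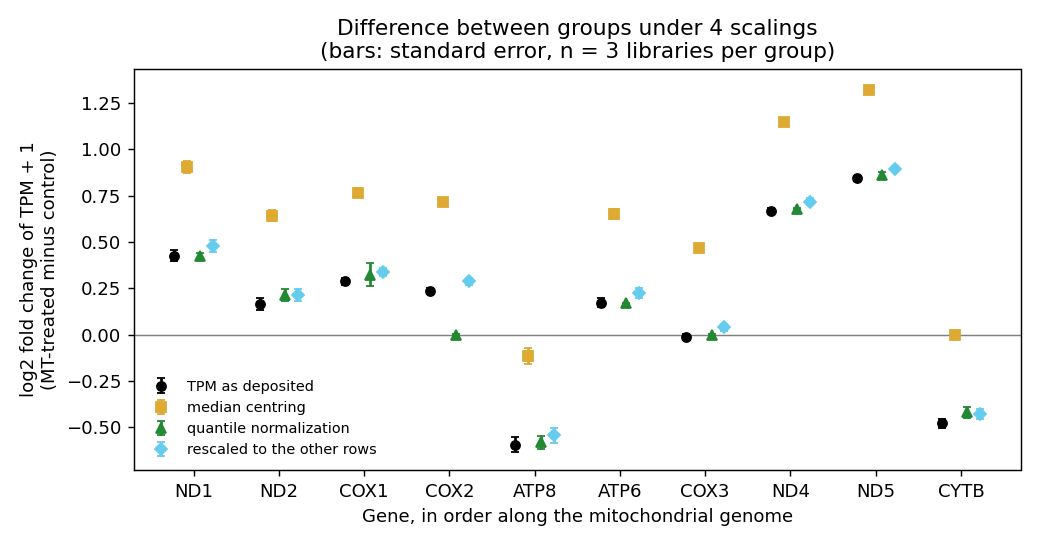
Log2 fold change of TPM + 1 (MT-treated minus control) with its standard error for each gene, in the order of the genes along the mitochondrial genome; symbols and colours give the 4 scalings. Median centring lies above the other scalings by about the same distance for every gene, with COX3 at 0.47 and CYTB at -0.000524, while the pattern from gene to gene is shared apart from COX2, which quantile normalization set to 0.

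Differences between the 10 genes do not depend on how a library is scaled, apart from the pseudocount and quantile normalization. Each gene was therefore also compared relative to the mean log2(TPM + 1) of the 10 genes in the same library. On this relative scale ND1, ND4, ND5, COX1 and COX2 were higher in MT-treated blastocysts, CYTB, COX3 and ATP8 were lower, and ND2 and ATP6 did not pass the test. Of all tested genes, 95.5% were called on the same scale, 58.7% higher and 36.8% lower. ND5 stood 2.68, 2.71 and 2.68 log2 units below the mean of the 10 genes in the control libraries and 2.03, 2.02 and 2.0 below it in the MT-treated libraries. The relative change of ND5 was 0.67 (SE 0.02, limma adjusted p = 2.57e-08), and that of ND4 was 0.50 (SE 0.01, limma adjusted p = 3.14e-08). ATP8 changed by -0.77 (SE 0.03, limma adjusted p = 5.83e-07) and CYTB by -0.65 (SE 0.02, limma adjusted p = 1.30e-07). COX3 stood above the mean of the 10 genes in every library, by 2.25 log2 units on average in control and 2.07 in MT-treated libraries (relative change -0.18, SE 0.01, limma adjusted p = 1.05e-05). ND2 stayed below and ATP6 above the mean, with relative changes of -0.01 (95% interval -0.08 to 0.07) and 0.00123 (95% interval -0.04 to 0.04). Relative to the median of the 10 genes, both passed the test, at 0.075 and 0.084, and without the trend COX2 no longer passed it relative to the mean (limma adjusted p = 0.0655). As shares of the summed TPM, ND4 went from 4.54% to 6.59%, CYTB from 5.94% to 3.90%, ATP8 from 4.63% to 2.80% and COX3 from 30.8% to 27.9% of the 10 genes.

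**Figure D3:**
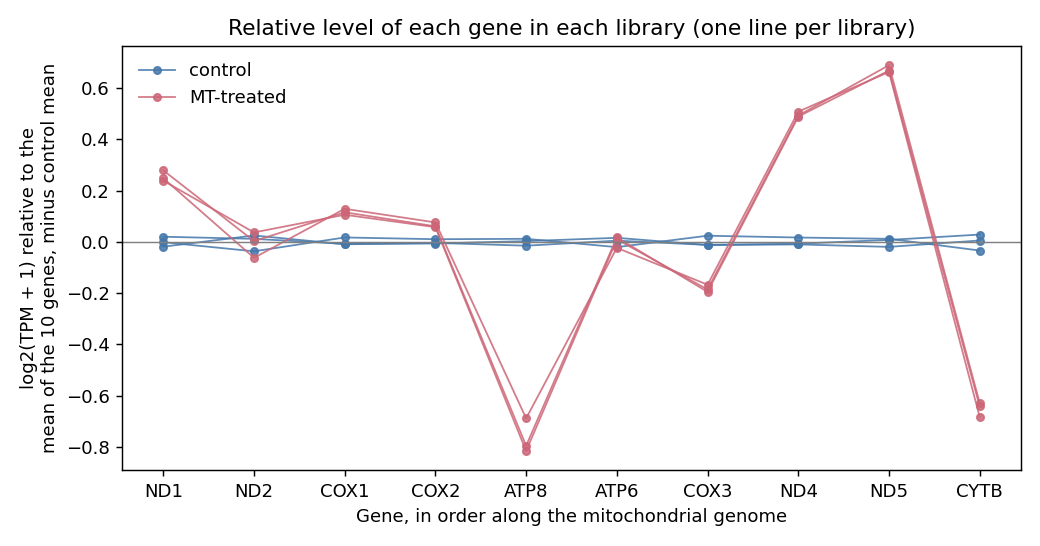
Level of each gene relative to the mean log2(TPM + 1) of the 10 genes in the same library, minus the control mean; each line is a library, blue for control and red for MT-treated, and genes are in the order of the mitochondrial genome. The 3 MT-treated lines lie close together, with ATP8 between 0.69 and 0.82 log2 units below and ND5 between 0.66 and 0.69 above the control mean.

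Genes that are neighbours in the genome, and so start from the same precursor RNA, differed in their change. ATP8 and ATP6 lie next to each other with overlapping reading frames and share a messenger in mammals. The ratio of ATP6 to ATP8 in TPM was 3.34, 3.44 and 3.46 in control and 5.41, 6.0 and 6.05 in MT-treated libraries. Every MT-treated ratio exceeded every control ratio, by 0.77 log2 units on average (exact permutation test, two-sided, p = 0.1, also after adjustment over 13 ratios). ATP8 is the shortest of the 10 genes in RefSeq, and how reads on the shared stretch were assigned is not given in the sources used here. ND5 and CYTB are separated only by ND6, which is encoded on the opposite strand. Their ratio of ND5 to CYTB was 0.174, 0.166 and 0.166 in control and 0.429, 0.418 and 0.421 in MT-treated libraries, a change of 1.33 log2 units (exact permutation test, two-sided, p = 0.1). The ratio of COX2 to COX1 moved far less, from a mean of 1.6 to a mean of 1.55, but its groups did not overlap either (exact permutation test, two-sided, p = 0.1). The ratio of ND5 to ND4 came to 0.221 ± 0.00198 in the control group and 0.250 ± 0.00361 in the MT-treated group (SD, n = 3 each). Across the 10 genes, the log2 fold change had a Spearman correlation of 0.62 with gene length and of -0.25 with mean TPM. These are descriptions over 10 genes measured in the same 6 libraries.

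The remaining rows of the mitochondrial genome gave log2 fold changes between those of ATP8 and ND5. ND4L, which shares a messenger with ND4, had 3967, 3977 and 3985 TPM in control and 5214, 5344 and 5301 TPM in MT-treated libraries (log2 fold change 0.41, adjusted p = 5.60e-08 by limma). ND3 had a log2 fold change of -0.13 (adjusted p = 0.0124 by limma) that was 0.35 after median centring and did not pass the test under the other scalings. ND6 varied more between replicates than any of the 10 genes, with 1171, 1424 and 1482 TPM in control and 1456, 1786.5 and 1962 TPM in MT-treated libraries. Its groups overlapped, and its log2 fold change was 0.35 (SE 0.14, limma adjusted p = 0.0481). The small ribosomal RNA did not pass the test (log2 fold change -0.03) but was higher after median centring (0.45) and quantile normalization (0.19). The large one was higher under all 4 scalings, with a log2 fold change of 0.36 on TPM as deposited (adjusted p = 8.59e-07 by limma). All 22 tRNA rows were listed at 0 in every library. Nuclear copies of mitochondrial sequence can take or give reads, and the handling of reads that map to several places and the strand setting are not given in the sources used here.

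The nuclear subunits of the same complexes were compared as lists written from general knowledge. Of 76 tested nuclear subunits of complexes I to V, 32 rose and 33 fell by limma, with a median log2 fold change of -0.00306, whereas after median centring 62 were higher and 9 lower. Of all tested genes, 61.6% were higher and 34.1% lower as deposited, and 70.4% and 25.4% after median centring. In complex I, 17 of 36 were higher and 14 lower, with a median of 0.06, where ND1, ND2, ND4 and ND5 had differences of 0.16 to 0.84. Within complex I, the mean log2(TPM + 1) of ND1, ND2, ND4 and ND5, without ND3, ND4L and ND6, exceeded that of the nuclear subunits by 2.01 ± 0.0281 in control and 2.57 ± 0.0283 in MT-treated blastocysts (SD, n = 3 each), a shift of 0.56 (exact permutation test, two-sided, p = 0.1). Against the median level of the nuclear subunits the shift was 0.33. Among the called nuclear complex I subunits NDUFC2 rose most (269 ± 5.99 and 482 ± 18.9 TPM) and NDUFA8 fell most (369 ± 6.08 and 135 ± 2.47 TPM; SD, n = 3 each).

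In complex III, CYTB moved down relative to the 8 tested nuclear subunits by 0.48 log2 units, from 2.19 ± 0.0499 to 1.71 ± 0.0337 above their mean (SD, n = 3 each; exact permutation test, two-sided, p = 0.1). Against their median level the shift was -0.30. Of these subunits, 3 were higher and 4 lower, with UQCRC1 at a log2 fold change of 0.71 and UQCRH at -1.08 (adjusted p = 5.54e-07 and 2.70e-09 by limma). In complex IV the shift was -0.09 (exact permutation test, two-sided, p = 0.1) and depended on COX6B2, which had a listed 0 in all 3 control libraries against 13.1, 13.4 and 14.0 TPM with MT. Among the 10 nuclear subunits above 0 in all libraries the shift was 0.27, and with a pseudocount of 0.1 over all 11 it was -0.38. COX6B2 was named after its values were seen. Of 11 tested nuclear subunits of complex IV, 3 were higher and 5 lower, with COX8A at 0.59 and COX7B at -0.59 (adjusted p = 3.50e-07 and 4.87e-06 by limma). In complex V the shift was -0.21 against the mean of 17 nuclear subunits and 0.10 against their median level, so its direction was not settled. Of these 17, 6 were higher and 9 lower, with ATP5MC2 at 1.37 and ATP5ME at -0.66 (adjusted p = 2.61e-08 and 4.62e-06 by limma). Complex II, which has no mitochondrially encoded subunit, had 3 genes higher and SDHB lower (log2 fold change -0.52), and SDHA had the largest rise at 0.30.

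**Figure D4:**
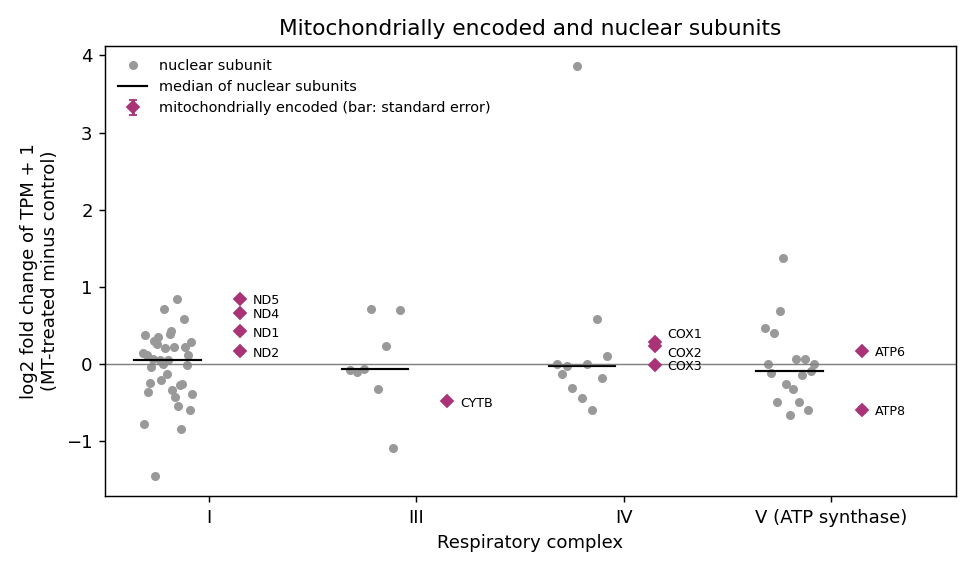
Log2 fold change of TPM + 1 (MT-treated minus control, TPM as deposited) of the nuclear subunits (grey points, black line at their median) and of the 10 mitochondrial genes (purple diamonds with standard error) of each complex; ND3, ND4L and ND6 are not drawn. ND1, ND2, ND4 and ND5 lie above the nuclear median of 0.06, and CYTB at -0.48 lies below that of complex III; median centring moves all points up by the same amount, to -0.000524 for CYTB.

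Nuclear genes that transcribe, process and stabilize mitochondrial RNA spread widely around 0. Of 26 tested genes of mitochondrial transcription and RNA handling, 13 were higher and 11 lower by limma, and the median size of their log2 fold changes was 1.19. Of the 26, 5 were listed at 0 in every control library, so that they could be tested only by being higher. TFAM, which packages mitochondrial DNA and starts its transcription, had 82.5, 87.2 and 82.9 TPM in control and 78.3, 80.5 and 76.8 TPM in MT-treated libraries. Its log2 fold change of -0.10 (adjusted p = 0.0210 by limma) became 0.38 after median centring and 0.17 after quantile normalization, and did not pass the test when rescaled to the other rows (-0.049). POLRMT, the mitochondrial RNA polymerase, had a listed 0 in all 3 control libraries against 3.48, 3.83 and 4.03 TPM with MT, a level near the minimum for testing, and its difference after quantile normalization was 0.016 and did not pass the test. TFB2M and TEFM, an initiation and an elongation factor, had log2 fold changes of -0.45 and -0.29 (adjusted p = 1.17e-05 and 7.46e-05 by limma), which were 0.03 and 0.18 after median centring, and TEFM did not pass the test after quantile normalization (0.016). LRPPRC and SLIRP form a complex that protects mitochondrial messengers, and they moved apart. LRPPRC had 41.7 ± 1.15 TPM in control and 81.0 ± 2.88 TPM with MT (SD, n = 3 each), and was higher under all scalings, whereas SLIRP went from 429 ± 20.3 to 321 ± 16.9 TPM (log2 fold change -0.42, and 0.06 after median centring). PNPT1, a subunit of the mitochondrial RNA degrading complex, had 0, 0.02 and 0 TPM in control and 14.96, 15.97 and 15.26 TPM in MT-treated libraries. It too could be tested only by being higher. FASTKD5, which acts in processing mitochondrial messengers that no tRNA borders, had 26.4 ± 0.0808 TPM in control and 0.673 ± 0.0666 TPM with MT (SD, n = 3 each). Below 1 TPM in every MT-treated library, it could be tested only by being lower. Of 11 tested genes of mitochondrial DNA replication, 7 were higher and 4 lower, and 5 of the 7 were listed at 0 in every control library, so that they could be tested only by being higher. Over all tested genes, 61.6% were higher and 34.1% lower. DGUOK, a kinase of mitochondrial nucleotide supply, had 51.8 ± 2.23 TPM in control and 211 ± 11.9 TPM with MT, and TOP3A, a topoisomerase, had 18.3 ± 0.0808 and 0.727 ± 0.0416 TPM (SD, n = 3 each), the largest rise and fall of this list among genes detected in both groups. TOP3A was below 1 TPM in every MT-treated library, so it could be tested only by being lower.

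The genes whose 6 library values were most like the mean course of the 10 mitochondrial genes were sought among 1226 nuclear genes with a symbol and a mean of at least 100 TPM. Likeness was the root mean square difference between deviations of log2(TPM + 1) from a gene's own mean over the 6 libraries. ATF4 (0.00602), GLUD1 (0.00991) and EIF4G2 (0.0123) came closest. They were picked for their likeness to the mean, from which single mitochondrial genes departed, with log2 fold changes from -0.60 (ATP8) to 0.84 (ND5). ATF4, a transcription factor of the stress response, had 298, 303 and 293 TPM in control and 334, 338 and 329 TPM in MT-treated libraries.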

How the data were processed

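The values the authors deposited are TPM for each gene in each library, written with at most 2 decimals. According to the study's methods and the submitters' processing notes, reads passed FastQC 0.11.9, were aligned with STAR 2.7.9a and were counted with featureCounts (Subread 1.6.3). The notes name ARS-UCD1.2 and the methods a later release. How TPM were made from counts is not given in the sources used here, and the methods name Smart-seq2 where the labels name a TruSeq kit. TPM keep no counts, so no depth or counting error is given. All 6 columns were matched to samples by their labels.

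Genes reaching 1 TPM in 3 or more libraries were fitted on log2(TPM + 1) with limma 3.58.1 (R 4.3.3, lmFit and eBayes with trend), with adjusted p under 0.05 as threshold. Fold changes on this scale understate those of low genes. Single measures were compared by exact permutation tests (scipy 1.17.1), and tables were made with pandas 2.3.3. In simulated data with 11953 genes, the fit recovered 95.5% of 200 changed genes and made 7 false calls. The simulation used normal noise around the control means and changed those 200 genes by 1 log2 unit. In the real libraries 95.7% of tested genes were called, so the simulation cannot vouch for the calls made here. Alternatives changed the pseudocount (0.1), the filter (none, or a TPM of 5), the scaling, the trend, the replicate block and the libraries used.

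Named were the 10 genes, the highest and lowest called gene of each nuclear list among those above 0 in both groups, 6 regulators of mitochondrial RNA, and the 3 genes most alike. The genes and lists were chosen with earlier results of these data known. Of the listed symbols, 8 were not found by name and were not analysed here.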

Additional observations from a re-analysis of the deposited data

How the results depend on the processing

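Sequencing depth was not analysed here, and 3 libraries in each group limit every comparison. Of the 404 repeats of these results under alternatives, 383 kept their direction and their side of the threshold or, for counts, stayed within 1.5 times. Part of these repeats could not change. The exact permutation tests could not go below p = 0.1, so their side of the threshold was fixed. Changes of the filter, the trend or the block left the log2 fold changes of the 10 genes as they were, so only their adjusted p could move. With median centring, CYTB had a log2 fold change of -0.000524 and COX3 of 0.47, 1 of the 10 genes was lower, 62 nuclear subunits were higher and 9 lower, and the complex V mean differed by 0.27. That scaling adds the same amount to every gene. With values rescaled to the other rows, COX3 was at 0.039, and with quantile normalization COX2 was at 0. Leaving out each library in turn gave -0.027 to 0.00142 for COX3, -0.030 to 0.020 for ND2 relative to the mean of the 10 genes and -0.00901 to 0.013 for ATP6 relative to it. Against their median in place of their mean, ND2 was at 0.075 and ATP6 at 0.084, and both passed the test. Without the trend, COX2 relative to the mean stayed at 0.065 but did not pass (adjusted p = 0.0655 by limma). The shift of mitochondrial against nuclear subunits was 0.33 in complex I, -0.30 in complex III, 0.17 in complex IV and 0.10 in complex V against the median nuclear level, and 0.27 in complex IV among subunits above 0 in all libraries. Replicate numbers are not said to mark a shared run, so libraries were treated as unpaired. The deviations of same-numbered libraries correlated by -0.01, -0.000679 and 0.06. However, ND1, ND2, ND4, CYTB, COX1, COX2, COX3 and ATP6 ranked the replicate numbers in the same order in both groups. ND5 and ATP8 did not. A replicate block changed the SE from 0.0305 to 0.00478 for ND1 and from 0.0394 to 0.0260 for ATP8. Whether same-numbered libraries share a run was not tested. With a replicate block, COX3 stayed at -0.0115 and passed the test (adjusted p = 0.00860 by limma). The causes of these changes were not tested beyond what is stated.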
